A study of Homo sapiens with 16 samples.

Results

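The MuvB core, the MYB and FOXM1 activators that join it and the DP partners of E2F were read at the level of their transcripts in SAOS cells. The members were LIN9, LIN37, LIN52, LIN54, RBBP4, MYBL1, MYBL2, FOXM1, TFDP1 and TFDP2, and every probe set with one of these as its single gene symbol was taken. The rule gave 26 probe sets of 54675 on the array for 10 genes, and no member appeared in a probe set with several symbols. RBBP4 had 6 probe sets, TFDP2 had 4, LIN9, MYBL1 and TFDP1 had 3 each, LIN37 and LIN52 had 2 each, and LIN54, MYBL2 and FOXM1 had 1 each. The study compared SAOS cells, a human osteosarcoma cell line without a working RB protein, in 4 groups of 4 arrays. One group was transiently transfected with human RB plus mouse SMYD2, an enzyme that adds methyl groups to lysines of RB and other proteins, one with human RB alone and one with mouse SMYD2 alone. The control was wild type SAOS cells without transfection, and the labels name no group with an empty vector, so the effect of transfection cannot be told apart from that of RB or SMYD2 in a comparison with control. Each array carried 1 sample of total RNA with the replicate number 1, 3, 4 or 5. The labels do not say that these are separate cultures, so the spread behind every p-value is that between these samples and may be technical.

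MuvB is a small core of subunits that changes its partners with the cell cycle. In resting cells it joins the pocket proteins RBL1 or RBL2, a repressor E2F and a DP protein as the DREAM complex, which holds down cell cycle genes. In cycling cells it binds MYBL2 and later FOXM1, and these assemblies switch on the genes of G2 and mitosis. RB itself acts mainly on the activator E2Fs, which also need a DP partner to bind DNA.

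All values are signals on the log2 scale after RMA, the authors' normalization, and levels are compared only within a probe set, since probe sets differ in brightness for reasons other than abundance. RMA keeps no detection call, so a dim probe set cannot be told from background. Array medians lay between 5.59 and 5.64, and arrays of one group correlated at 0.981 to 0.998. The leading probe set of a gene is the one with the highest mean over the 16 arrays. Differences were tested with limma over 54613 probe sets at an adjusted p under 0.05, and their errors are standard errors (SE). Group values are means ± SD with n = 4.

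The transfected RB was seen in the brighter RB1 probe set, 211540_s_at, at 8.67 ± 0.90 with RB plus SMYD2, 7.70 ± 0.34 with RB, 6.85 ± 0.17 with SMYD2 and 6.48 ± 0.32 in control. It differed by 1.22 ± 0.31 between RB and control, which did not pass (limma adjusted p = 0.0721, and 0.00665 with the replicate number as a block). The other RB1 probe set, 203132_at, averaged 3.44 to 3.51 in all 4 groups. The brightest SMYD2 probe set read 10.18, 10.05, 10.28 and 10.16 in the same groups. Human probes may not bind the mouse transcript, so this does not check the SMYD2 label. The 6 osteoblast markers averaged 10.03 to 13.54 each. Of 10 markers of leukocytes, endothelium, epithelium and muscle, EPCAM averaged 9.40 and the other 9 averaged 3.82 to 6.47 each, and the mean of the 10 was 5.47 to 5.64 on every array. RNA quality differed between arrays: the 3′ probe set of the control transcript ACTB exceeded its 5′ probe set by 3.53 on SMYD2 replicate 1 and by 2.46 on control replicate 1, against 0.541 to 1.63 on the other 14 arrays. A larger value means more signal from the 3′ end of the transcript.

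The 2 activators fell with RB. FOXM1, the forkhead factor that drives late G2 and mitotic genes, read 8.81, 9.16, 8.81 and 8.62 with RB plus SMYD2 in the order of replicates 1, 3, 4 and 5. It read 9.19, 9.39, 9.28 and 9.34 with RB, 9.91, 9.90, 10.20 and 10.04 with SMYD2, and 9.91, 9.99, 10.16 and 10.17 in control. All 8 arrays with RB lay below all 8 without it, and the RB plus SMYD2 arrays lay lowest. FOXM1 fell by 0.76 ± 0.11 with RB against control (1.69-fold lower, limma adjusted p = 0.00213). It fell by 1.16 ± 0.11 with RB plus SMYD2 against SMYD2 (2.24-fold lower, adjusted p = 9.73e-06). In bulk RNA, fewer cells that express a gene and less of its RNA per cell cannot be told apart. The FOXM1 probe set is of the _x_at kind, in which some probes can also match other sequences.

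MYBL2, also called B-MYB, binds MuvB in S phase and brings it to the promoters of mitotic genes. It read 8.66, 9.02, 8.66 and 8.57 with RB plus SMYD2, 8.90, 9.08, 8.92 and 9.14 with RB, 9.76, 9.67, 9.74 and 9.71 with SMYD2, and 9.37, 9.49, 9.80 and 9.74 in control. The arrays with RB again lay below all arrays without it, but RB plus SMYD2 and RB overlapped through replicate 3. MYBL2 fell by 0.59 ± 0.11 with RB against control (1.51-fold lower, limma adjusted p = 0.0134). It fell by 1.00 ± 0.11 with RB plus SMYD2 against SMYD2 (1.99-fold lower, adjusted p = 4.23e-05). The call in RB against control was lost without control replicate 4, control replicate 5 or RB replicate 4, at adjusted p = 0.0659, 0.0627 and 0.0644.

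The promoter of MYBL2 is a classic target of E2F in human cells, so its sequence is shown, with those of TFDP1 and LIN52, whose probe sets are described below. The sequences are RefSeq windows on GRCh38.p14 that run from 250 bases before the annotated start to 50 after it, 5′ to 3′ on the strand of the gene. Capitals mark matches to the E2F-type motifs GGCGGGA and GGCGCGA, searched on both strands, so the match in LIN52 is printed as TCCCGCC.
MYBL2, chr20:43666864-43667163, plus strand: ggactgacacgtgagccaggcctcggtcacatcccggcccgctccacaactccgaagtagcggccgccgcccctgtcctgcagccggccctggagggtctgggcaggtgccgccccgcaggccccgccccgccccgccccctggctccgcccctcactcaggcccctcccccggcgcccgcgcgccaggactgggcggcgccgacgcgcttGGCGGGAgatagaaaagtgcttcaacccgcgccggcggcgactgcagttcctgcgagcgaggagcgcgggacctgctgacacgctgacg
TFDP1, chr13:113584503-113584802, plus strand: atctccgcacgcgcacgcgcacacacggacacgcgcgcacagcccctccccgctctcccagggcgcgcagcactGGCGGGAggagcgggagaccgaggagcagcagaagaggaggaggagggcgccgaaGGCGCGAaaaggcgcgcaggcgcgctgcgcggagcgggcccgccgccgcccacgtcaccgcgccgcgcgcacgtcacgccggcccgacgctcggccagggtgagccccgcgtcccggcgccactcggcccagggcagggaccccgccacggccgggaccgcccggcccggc
LIN52, chr14:74084706-74085005, plus strand: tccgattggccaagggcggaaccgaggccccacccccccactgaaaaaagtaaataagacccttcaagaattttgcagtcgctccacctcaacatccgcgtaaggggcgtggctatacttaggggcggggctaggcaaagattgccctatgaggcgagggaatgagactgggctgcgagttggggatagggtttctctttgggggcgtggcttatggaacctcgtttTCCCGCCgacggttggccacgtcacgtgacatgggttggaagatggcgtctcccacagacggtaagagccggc
The match in MYBL2 begins 39 bases before the start, that in LIN52 23 bases before it, and those in TFDP1 176 and 121 bases before it. Windows were matched for 8 of the 10 members, 15 in all, some of which overlap one another, in LIN9, LIN37, LIN54 and RBBP4. Of the 15 windows, 10 held GGCGGGA or GGCGCGA, and 19.1% of all 35116 windows did. The CHR element that LIN54 binds has the letters TTTGAA, also searched on both strands, so that TTCAAA counts as a match. Either stood in 6 of the 15 windows, in LIN9, LIN37, LIN54 and TFDP2, and in 15.2% of all windows. A match is a description of the letters and not a bound site, and base composition, which E2F-type motifs follow, was not matched between the windows.

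MYBL1, or A-MYB, is the relative of MYBL2 best known from the testis. Its leading probe set, 213906_at, read 7.30, 8.33, 7.38 and 7.71 with RB plus SMYD2, 8.0, 8.76, 7.71 and 7.89 with RB, 7.78, 8.57, 8.70 and 8.72 with SMYD2, and 7.91, 8.91, 8.82 and 8.74 in control. Every group overlapped every other, and replicate 1 was far below the others in both groups without RB. MYBL1 differed by -0.51 ± 0.28 between RB and control (limma adjusted p = 0.599). It differed by -0.76 ± 0.28 between RB plus SMYD2 and SMYD2 (adjusted p = 0.180), and passed there with the replicate number as a block (adjusted p = 0.0163) and without SMYD2 replicate 1 (-0.98, adjusted p = 0.0490). With array weights it also passed there (-1.01, limma adjusted p = 0.0131). The other 2 MYBL1 probe sets differed by -0.16 to 0.00 in these comparisons and did not pass.

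**Figure D1:**
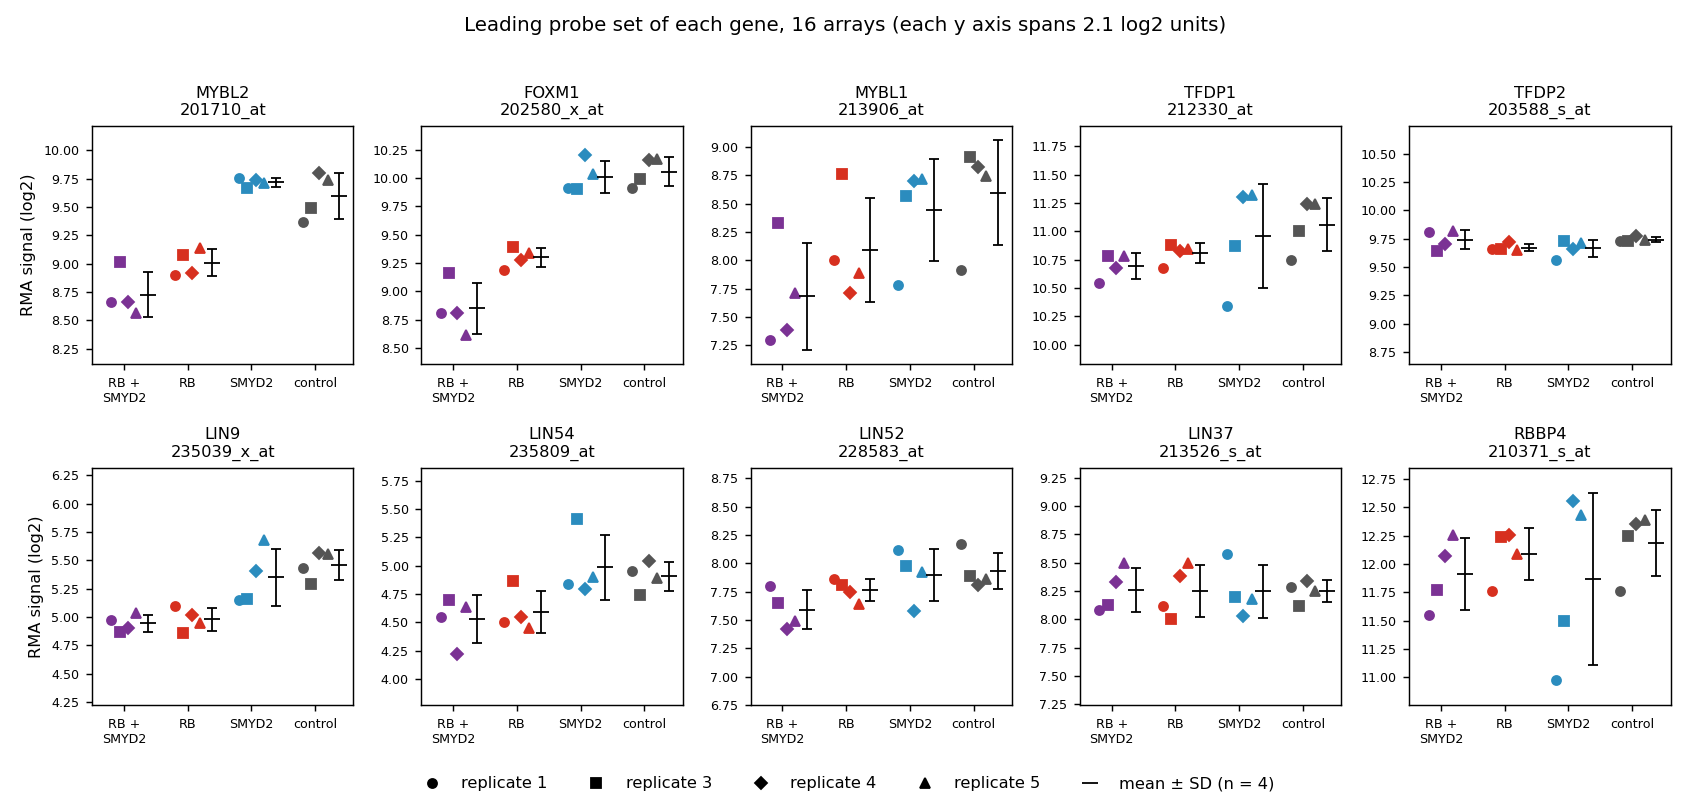
Signal (log2, RMA) of the leading probe set of each of the 10 genes on 16 arrays, by group; symbols give the replicate number, and the bar gives the mean ± SD of 4 arrays. MYBL2 and FOXM1 separate the arrays with RB from those without it, with FOXM1 at 8.85 ± 0.22 with RB plus SMYD2 and 10.06 ± 0.13 in control, while RBBP4 and TFDP1 spread most in the SMYD2 group.

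The 3 probe sets of TFDP1, which encodes DP1, the main partner of the E2Fs, did not read alike. The probe set 242939_at read 9.80, 9.97, 9.84 and 9.84 with RB plus SMYD2, 9.98, 10.04, 10.03 and 10.15 with RB, 10.73, 10.68, 10.46 and 10.63 with SMYD2, and 10.50, 10.51, 10.69 and 10.67 in control. The arrays with RB lay below all those without it, and RB plus SMYD2 lay below RB, with no overlap. This set fell by 0.54 ± 0.08 with RB against control (1.46-fold lower, limma adjusted p = 0.00233) and by 0.76 ± 0.08 with RB plus SMYD2 against SMYD2 (1.70-fold lower, adjusted p = 2.34e-05). The leading set, 212330_at, read 10.54 to 10.78 with RB plus SMYD2, 10.68 to 10.88 with RB, 10.34 to 11.32 with SMYD2 and 10.75 to 11.24 in control. Its groups overlapped, with SMYD2 replicate 1 the lowest of the 16 arrays. It differed by -0.25 ± 0.17 between RB and control (adjusted p = 0.705) and by -0.26 ± 0.17 between RB plus SMYD2 and SMYD2 (adjusted p = 0.541), and passed in the second comparison without SMYD2 replicate 1 (-0.46, adjusted p = 0.0410). With array weights it passed in RB plus SMYD2 against SMYD2 (-0.46, limma adjusted p = 0.0299) and against control (-0.46, adjusted p = 0.0142). The dimmest set, 204147_s_at, ranged from 7.07 to 9.27 within the SMYD2 group and differed by -0.07 ± 0.38 between RB and control.

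The signal of some probe sets moved with the ACTB measure of RNA quality. Of 26 such relations, computed over the 16 arrays, 11 passed at an adjusted permutation p under 0.05 by Pearson's r and 6 by Spearman's rho. For TFDP1 204147_s_at, Pearson's r was -0.911 (permutation p = 1e-05, the smallest that 100000 permutations can give, adjusted p = 0.00013) and Spearman's rho was -0.829 (permutation p = 0.00011, adjusted p = 0.00143). Without the 2 farthest arrays, SMYD2 replicate 1 and control replicate 1, r was -0.818. For the leading set, TFDP1 212330_at, r was -0.627 (permutation p = 0.00774, adjusted p = 0.0201) and rho -0.579 (permutation p = 0.0206, adjusted p = 0.0671), and r was -0.429 without those arrays. For TFDP1 242939_at, r was 0.320 (permutation p = 0.245, adjusted p = 0.424) and rho was 0.144 (permutation p = 0.593, adjusted p = 0.804), and r was -0.0759 without those arrays. For FOXM1, r was 0.163 (permutation p = 0.568, adjusted p = 0.642) and rho -0.144 (permutation p = 0.594, adjusted p = 0.804), and r was -0.152 without them. For MYBL2, r was 0.241 (permutation p = 0.393, adjusted p = 0.500) and rho 0.0941 (permutation p = 0.731, adjusted p = 0.864), and r was -0.0735 without them. For LIN9 235039_x_at, which also fell with RB, r was -0.0128 (permutation p = 0.965, adjusted p = 0.965) and rho -0.0971 (permutation p = 0.721, adjusted p = 0.864), and r was -0.251 without them. These values mix differences between groups with those within them. After the group means were taken out, r was -0.967 for TFDP1 204147_s_at, -0.899 for 212330_at and 0.258 for 242939_at. It was then -0.338 for FOXM1, -0.0980 for MYBL2 and -0.423 for LIN9 235039_x_at, and these values were not tested.

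**Figure D2:**
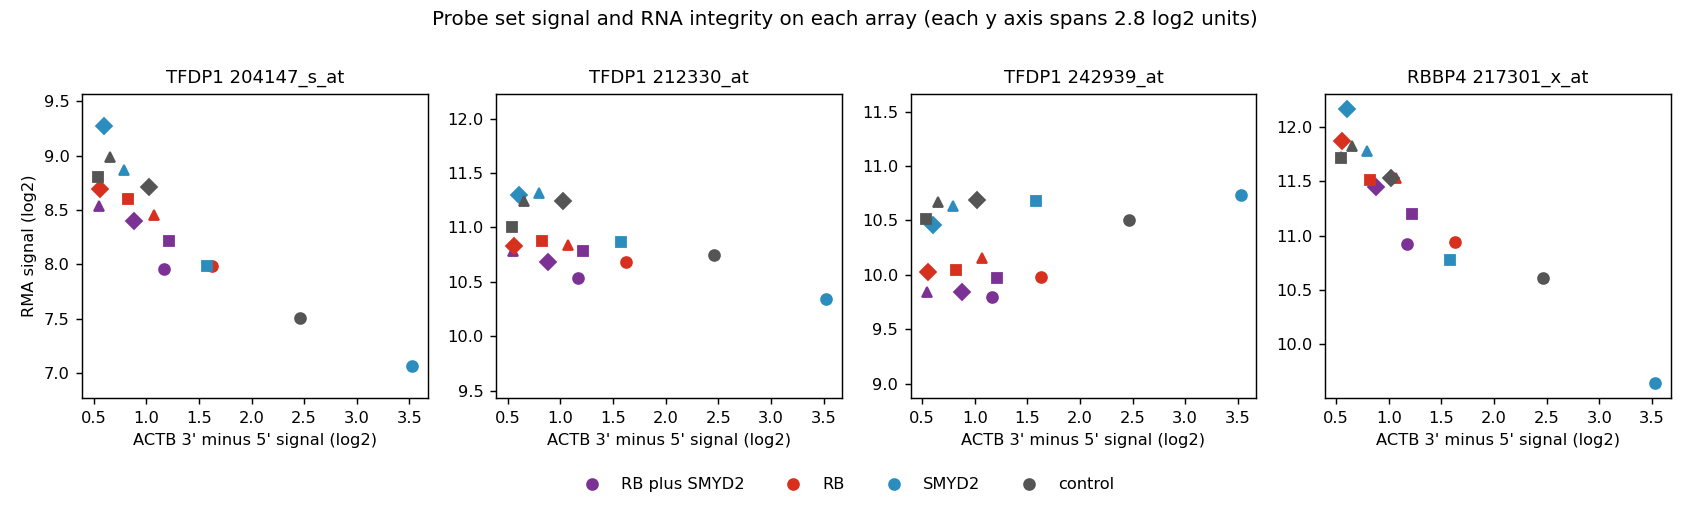
Signal (log2) of 4 probe sets against the ACTB 3′ minus 5′ signal (log2) on 16 arrays; colour gives the group, and the symbol the replicate number (circle 1, square 3, diamond 4, triangle 5). TFDP1 204147_s_at and RBBP4 217301_x_at decline along the axis, with r of -0.911 and -0.951, while TFDP1 242939_at separates the arrays with RB from those without it, and no array with RB lies beyond 1.63 on the axis.

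TFDP2, which encodes the second DP protein, did not pass the test in any of its 4 probe sets without array weights. Its leading set, 203588_s_at, read 9.81, 9.64, 9.70 and 9.82 with RB plus SMYD2, 9.66, 9.66, 9.72 and 9.65 with RB, 9.56, 9.73, 9.66 and 9.71 with SMYD2, and 9.73, 9.73, 9.77 and 9.74 in control. RB and control did not overlap, but they differed by only -0.07 ± 0.07 (95% interval -0.22 to 0.08). The dimmest set, 244043_at, differed by 0.34 ± 0.14 between RB and control (limma adjusted p = 0.383) and by 0.38 ± 0.14 between RB plus SMYD2 and control (adjusted p = 0.190). With array weights it passed in both, at 0.45 (adjusted p = 0.0367) and 0.49 (adjusted p = 0.0116), higher with RB. The set 226157_at moved with the ACTB measure, with r = 0.874 (permutation p = 0.00016, adjusted p = 0.000693) and rho = 0.679 (permutation p = 0.00473, adjusted p = 0.0205), and r was 0.511 without the 2 farthest arrays. Between RB and control it differed by 0.11 ± 0.15, and 203589_s_at by -0.04 ± 0.10.

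In the MuvB core, LIN9 was the only subunit with a probe set that passed in the main fit. LIN9 is the scaffold that links the core to MYB proteins. Its leading set, 235039_x_at, is dim and of the _x_at kind, and read 4.97, 4.87, 4.90 and 5.04 with RB plus SMYD2, 5.10, 4.86, 5.02 and 4.95 with RB, 5.15, 5.16, 5.41 and 5.68 with SMYD2, and 5.43, 5.29, 5.57 and 5.56 in control. The arrays with RB lay below all those without it, by 0.05 at the nearest. LIN9 fell by 0.48 ± 0.11 with RB against control (1.39-fold lower, limma adjusted p = 0.0362) and by 0.40 ± 0.11 with RB plus SMYD2 against SMYD2 (1.32-fold lower, adjusted p = 0.0456). These calls were near the threshold. The first was lost without control replicates 1, 4 or 5, RB replicates 3, 4 or 5, or RB plus SMYD2 replicates 1 or 4, each left out alone, at adjusted p = 0.0529 to 0.137. The second was lost without any single array other than control replicate 3, SMYD2 replicates 1 or 3, or RB replicate 1, at adjusted p = 0.0503 to 0.131. The other LIN9 sets, dimmer still, differed by -0.13 ± 0.08 and -0.03 ± 0.09 between RB and control and did not pass.

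LIN54, the subunit that binds the CHR element of DNA, had 1 dim probe set. It read 4.55, 4.70, 4.22 and 4.63 with RB plus SMYD2, 4.50, 4.86, 4.55 and 4.45 with RB, 4.84, 5.41, 4.79 and 4.90 with SMYD2, and 4.95, 4.74, 5.04 and 4.89 in control. RB plus SMYD2 lay below both groups without RB, and RB overlapped each of them through its replicate 3. LIN54 differed by -0.32 ± 0.14 between RB and control (limma adjusted p = 0.411). Between RB plus SMYD2 and SMYD2 it differed by -0.46 ± 0.14 (adjusted p = 0.0761), and it passed there with the replicate block (adjusted p = 0.0296). It also passed there when only leading sets were tested (limma adjusted p = 0.0469). With array weights it passed there (-0.49, adjusted p = 0.0304) and in RB plus SMYD2 against control (-0.45, adjusted p = 0.0220).

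LIN52, whose phosphorylation by DYRK1A favours DREAM over the MYBL2 complex, read 7.80, 7.65, 7.42 and 7.49 in its leading set, 228583_at, with RB plus SMYD2. The same set read 7.86, 7.81, 7.75 and 7.64 with RB, 8.12, 7.98, 7.58 and 7.92 with SMYD2, and 8.17, 7.89, 7.81 and 7.86 in control. RB plus SMYD2 lay just below control, and the other groups overlapped. It differed by -0.17 ± 0.12 between RB and control (limma adjusted p = 0.745) and by -0.31 ± 0.12 between RB plus SMYD2 and SMYD2 (adjusted p = 0.223, and 0.0356 with the replicate block). The second LIN52 set, 231959_at, differed by -0.09 and -0.04 in these comparisons. Against the ACTB measure, 228583_at had r = 0.666 (permutation p = 0.004, adjusted p = 0.0122) and rho = 0.453 (permutation p = 0.0795, adjusted p = 0.207), and r was 0.334 without the 2 farthest arrays. The set 231959_at had r = -0.801 (permutation p = 7e-05, adjusted p = 0.000455) and rho = -0.762 (permutation p = 0.00115, adjusted p = 0.00747), and r was -0.642 without them. The part of RNA quality in the differences was not tested.

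LIN37, a subunit needed for repression by DREAM, did not pass in either probe set. Its leading set, 213526_s_at, averaged 8.26 ± 0.19 with RB plus SMYD2, 8.25 ± 0.23 with RB, 8.24 ± 0.24 with SMYD2 and 8.25 ± 0.09 in control. The difference between RB and control was 0.00 ± 0.13, with a 95% interval of -0.28 to 0.28, and that of the second set was 0.05 ± 0.09. All groups overlapped in both sets.

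RBBP4, a histone-binding protein that also serves chromatin assembly factor and the NuRD, PRC2 and Sin3 complexes, did not pass in any of 6 probe sets in the main fit. With only the arrays compared in the fit, 237333_at passed in RB plus SMYD2 against control (-0.35, limma adjusted p = 0.0282). With the block, 239071_at passed in RB plus SMYD2 against SMYD2 (limma adjusted p = 0.0158) and against control (adjusted p = 0.0134). Its leading set, 210371_s_at, read 11.55 to 12.26 with RB plus SMYD2, 11.76 to 12.26 with RB, 10.98 to 12.56 with SMYD2 and 11.76 to 12.39 in control. The 6 sets differed by -0.32 to 0.04 between RB and control, with SE of 0.15 to 0.41. The 6 sets differed in their relation to the ACTB measure. For the leading set, r was -0.852 (permutation p = 0.00014, adjusted p = 0.000693) and rho -0.8 (permutation p = 0.00037, adjusted p = 0.00321), and r was -0.820 without the 2 farthest arrays. For 244872_at, r was 0.828 (permutation p = 6e-05, adjusted p = 0.000455) and rho 0.694 (permutation p = 0.00391, adjusted p = 0.0203), and r was 0.639 without those arrays. For 217301_x_at, r was -0.951 (permutation p = 1e-05, adjusted p = 0.00013) and rho -0.882 (permutation p = 3e-05, adjusted p = 0.00078), and r was -0.902 without the 2 farthest arrays. The set 225396_at moved the other way, with r = 0.810 (permutation p = 0.00421, adjusted p = 0.0122) and rho = 0.306 (permutation p = 0.248, adjusted p = 0.537). That relation rests on the 2 farthest arrays, since r was -0.0235 without them. The set 239071_at had r = 0.750 (permutation p = 0.0005, adjusted p = 0.00186) and rho = 0.597 (permutation p = 0.0168, adjusted p = 0.0623), and r was 0.529 without those arrays. The set 237333_at had r = -0.0336 (permutation p = 0.898, adjusted p = 0.934) and rho = -0.141 (permutation p = 0.603, adjusted p = 0.804).

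Counted over all members, 4 of 26 probe sets passed in RB against control, all lower: those of FOXM1, MYBL2, TFDP1 242939_at and LIN9 235039_x_at. Over all probe sets, limma called 591 (1.08%), of which 363 were lower (0.665%) and 228 higher. The replicate block called the same number of members and 1810 of all probe sets (3.31%). With the probe sets of each gene averaged, 2 of 10 members passed, FOXM1 and MYBL2, of 497 called over 19775 genes (2.51%). The members' median difference was -0.14, and that of their 10 leading sets was -0.28, while the median of all probe sets was -0.0014. RB and control did not overlap in 5 of the 26 sets, and in 7.31% of all probe sets. For each of the 4 sets that passed, the exact two-sided permutation p was 0.0286, the smallest that 4 arrays against 4 allow, and 4 of 4 same-numbered pairs were lower with RB. A lack of overlap between 4 and 4 arrays fixes both values, so they add nothing to it.

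In RB plus SMYD2 against SMYD2, which asks what RB does when SMYD2 is present, the same 4 probe sets passed, all lower, of 1918 called over all probe sets (3.51%), of which 1162 were lower (2.13%). The members' median difference was -0.17. With the replicate block, 8 members passed of 4021 called (7.36%). The 4 added were LIN52 228583_at, LIN54, MYBL1 213906_at and RBBP4 239071_at, the last at -0.44 ± 0.21 (limma adjusted p = 0.344, and 0.0158 with the block). The groups did not overlap in 6 of 26 members and in 8.97% of all probe sets. The groups of this comparison share no array with those of RB against control. Both were tested in the same model, however, with an error estimated from the arrays of all groups, so the 2 lists of calls are not independent. With only its own arrays in the fit, RB plus SMYD2 against SMYD2 called 847 of all probe sets. The overlap given next is that of the shared model. Over all probe sets the 2 lists shared 545 probe sets, which is 92.2% of the list for RB against control and 28.4% of the list for RB plus SMYD2 against SMYD2, and all 545 moved the same way.

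In RB plus SMYD2 against control, the same 4 probe sets passed, of 1931 called over all probe sets (3.54%), of which 1159 were lower (2.12%). FOXM1 fell by 1.21 ± 0.11 (2.31-fold lower, limma adjusted p = 5.53e-06), MYBL2 by 0.87 ± 0.11 (1.83-fold lower), TFDP1 242939_at by 0.73 ± 0.08 (1.66-fold lower) and LIN9 235039_x_at by 0.51 ± 0.11 (1.43-fold lower). MYBL1 213906_at differed by -0.92 ± 0.28 (adjusted p = 0.0928, and 0.00486 with the replicate block). It passed without control replicate 1, SMYD2 replicate 1 or RB plus SMYD2 replicate 3, at adjusted p = 0.0274, 0.0414 and 0.0334. With array weights it also passed (-1.10, limma adjusted p = 0.00265). The block called 7 members of 3828 in all (7.01%), adding MYBL1 213906_at, LIN52 228583_at and RBBP4 239071_at. The groups did not overlap in 7 of 26 members and in 11.1% of all probe sets.

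**Figure D3:**
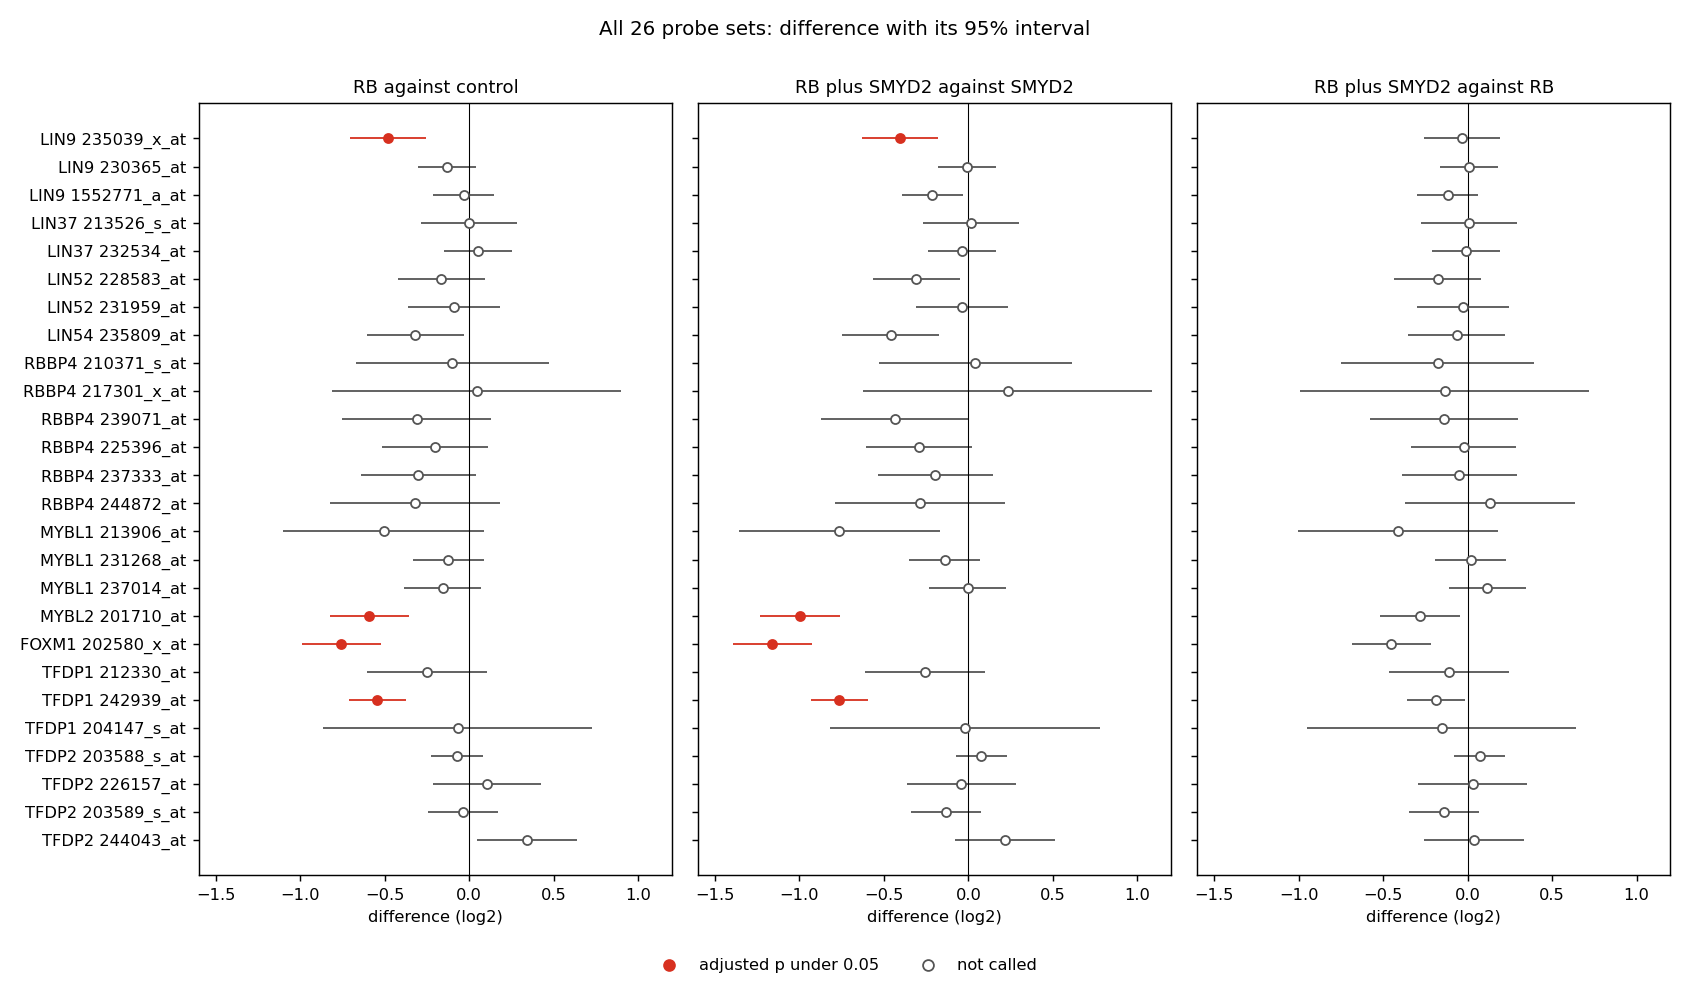
Difference (log2) of each of the 26 probe sets in 3 comparisons, with its 95% interval from limma; filled points passed at an adjusted p under 0.05. The same 4 sets passed in RB against control and in RB plus SMYD2 against SMYD2, FOXM1 at -0.76 and -1.16, and none of the 26 passed in RB plus SMYD2 against RB.

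The comparison of RB plus SMYD2 with RB asks what SMYD2 adds to ectopic RB. None of the 26 probe sets passed in limma, of 1 called over all probe sets (0.00183%), and 3 members and 2121 of all probe sets (3.88%) had an unadjusted p under 0.05. FOXM1 differed by -0.45 ± 0.11 (95% interval -0.68 to -0.22, adjusted p = 1.00, and 0.520 with the replicate block). Its groups did not overlap and 4 of 4 same-numbered pairs were lower with RB plus SMYD2 (exact permutation p = 0.0286). MYBL2 differed by -0.28 ± 0.11 (95% interval -0.52 to -0.05) and was lower in 4 of 4 pairs, with overlap (exact permutation p = 0.0857). TFDP1 242939_at differed by -0.19 ± 0.08, lower in 4 of 4 pairs and without overlap (exact permutation p = 0.0286). The groups did not overlap in 2 of 26 members and in 3.29% of all probe sets, and the members' median difference was -0.06. LIN9 235039_x_at differed by -0.03 ± 0.11 (95% interval -0.26 to 0.19). The RB1 probe set 211540_s_at read 0.97 ± 0.31 higher with RB plus SMYD2 than with RB (adjusted p = 1.00), and the part of this in the members' differences was not tested.

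The interaction subtracts the RB response without SMYD2 from the RB response with it, and tests whether the responses differ. No member passed, of 1 called over all probe sets (0.00183%), and 2 members and 1566 of all probe sets (2.87%) had an unadjusted p under 0.05. These were MYBL2 at -0.41 ± 0.16 (95% interval -0.74 to -0.07) and FOXM1 at -0.40 ± 0.16 (95% interval -0.73 to -0.07), each with a limma adjusted p of 1.00.

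SMYD2 alone left the members near control. None of the 26 passed of 0 called in limma over all probe sets (0%), and 0 members and 1667 of all probe sets (3.05%) had an unadjusted p under 0.05. The members' differences lay between -0.32 and 0.18, with a median of -0.04. The groups overlapped in all 26 sets and did not overlap in 1.8% of all probe sets. The 95% interval was -0.28 to 0.19 for FOXM1 and -0.11 to 0.36 for MYBL2, so differences of those sizes are not excluded by these arrays. In RB against SMYD2, 3 members passed, all lower, of 671 called (1.23%), of which 368 were lower (0.674%). They were FOXM1 and MYBL2, each at -0.71 ± 0.11, and TFDP1 242939_at at -0.58 ± 0.08. LIN9 235039_x_at differed by -0.37 ± 0.11 (adjusted p = 0.118, 0.0327 with the replicate block and 0.0182 with array weights).

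The order of the groups can be read from these values. For FOXM1, SMYD2 and control were highest and did not differ beyond their spread, RB lay below them, and RB plus SMYD2 lay below RB without overlap but short of the test over all probe sets. MYBL2 and TFDP1 242939_at had the same order, with overlap between RB plus SMYD2 and RB for MYBL2. For LIN9 235039_x_at, RB plus SMYD2 and RB overlapped, as did SMYD2 and control.

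Genes that MYBL2 with MuvB and FOXM1 are known to activate in G2 and mitosis were lower with RB. Of 36 such genes measured, each by its leading probe set, 24 fell with RB against control and 12 did not pass, where 1.27% of all genes fell by their leading sets. Their median difference was -0.71, against 0.0056 over all 19775 genes, and 32 passed with the replicate block. KIF14, a mitotic kinesin, fell by 0.95 ± 0.17, ASPM, a spindle pole protein, by 0.83 ± 0.19, and KIF23, a kinesin of the midzone, by 0.78 ± 0.18. CENPE, a kinetochore motor, differed by -0.89 ± 0.23 and did not pass (limma adjusted p = 0.0805). With RB plus SMYD2 against SMYD2, 32 of the 36 fell, with a median of -0.95, where 3.49% of all genes fell. AURKA, a spindle kinase, fell by 1.15 ± 0.11, BUB1, a checkpoint kinase, by 1.08 ± 0.14 and KIF4A, a chromosome-bound kinesin, by 1.08 ± 0.12. With RB plus SMYD2 against RB, 0 of the 36 passed in limma, while all 36 differences were negative, with a median of -0.38, against 0.00455 over all genes.

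Targets of E2F and DP in G1 and S phase moved in the same direction. Of 26 measured, 17 fell with RB against control and 9 did not pass, where 1.27% of all genes fell by their leading sets. Their median difference was -0.54, and 23 passed with the replicate block. TK1, which salvages thymidine, fell by 0.68 ± 0.14, CDT1, a licensing factor, by 0.67 ± 0.12, and MCM7, a subunit of the replicative helicase, by 0.65 ± 0.09. With RB plus SMYD2 against SMYD2, 24 of the 26 fell, with a median of -0.73, where 3.49% of all genes fell. With RB plus SMYD2 against RB, 0 passed in limma and all 26 differences were negative, with a median of -0.25, against 0.00455 over all genes.

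Among 11 pocket proteins and E2Fs, 4 fell with RB against control and 7 did not pass, where 1.27% of all genes fell by their leading sets. E2F7 and E2F8, which repress without a DP partner, fell by 0.70 ± 0.14 and 0.69 ± 0.15, and RBL1, the pocket protein of DREAM in cycling cells, fell by 0.62 ± 0.12. With RB plus SMYD2 against SMYD2, where 3.49% of all genes fell, 5 fell and 1 rose, the last being the transfected RB1, by 1.82 ± 0.31. Of 14 partners of RBBP4 in other complexes, 4 fell with RB against control, against 1.27% of all genes. They were CHAF1A by 0.71 ± 0.12 and CHAF1B by 0.56 ± 0.09, the large subunits of chromatin assembly factor, EZH2, the methyltransferase of PRC2, by 0.52 ± 0.09, and SAP30, a Sin3 subunit, by 0.45 ± 0.08. The other 10 did not pass, and the list's median was -0.23. Of 7 relatives and regulators, 0 passed in limma with RB against control and 2 with the replicate block: CDK2, which differed by -0.41 ± 0.10 (adjusted p = 0.0618, and 0.0162 with the block), and MYB, which differed by -0.40 ± 0.15 (adjusted p = 0.317, and 0.0286 with the block). With RB plus SMYD2 against SMYD2, MYB fell by 0.85 ± 0.15 and CDK2 by 0.63 ± 0.10. Of 9 interferon-stimulated genes, which can respond to transfected DNA, 0 passed in RB against control in limma and 1 with the block, IFI6 at 0.35 ± 0.12.

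**Figure D4:**
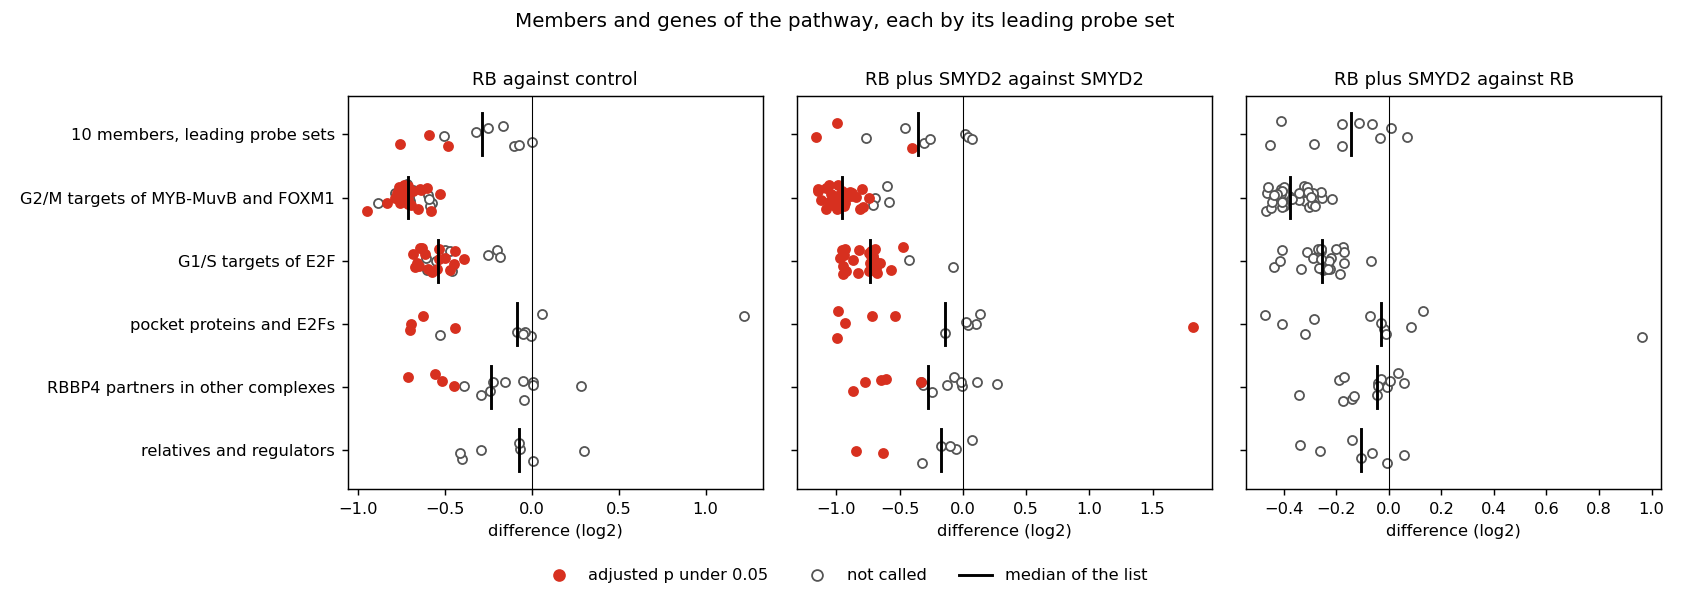
Difference (log2) of each gene's leading probe set, by list, in 3 comparisons whose horizontal axes differ in range; filled points passed at an adjusted p under 0.05, and bars give each list's median. The G2/M and G1/S lists sit below 0 in all 3 panels, with medians of -0.71 and -0.54 in RB against control, whereas the 10 members spread from -0.76 to 0.00 there.

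Over the 16 arrays, the genes whose leading sets followed FOXM1 most closely among 19775 were KIF2C (r = 0.992), KIF4A (0.989), NSD2 (0.988), FEN1 (0.987) and ESPL1 (0.987). Those closest to MYBL2 were CBR3 (r = 0.986), TROAP (0.978), CENPO (0.974), CENPN (0.974) and PTTG1 (0.973). FOXM1 and MYBL2 correlated at 0.975 with each other, and at 0.839 after the group means were taken out. These values describe arrays that share 4 groups and one normalization.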

How the data were processed

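Expression was measured on 16 Affymetrix arrays of SAOS RNA. The authors deposited log2 signals of 54675 probe sets, made with RMA, per the submitters' processing notes; neither a version nor the set of arrays normalized together is stated there. Since RMA puts all arrays on one distribution, a change shared by most genes would not be seen.

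Gene names came from the platform annotation: 41097 probe sets carried 1 symbol, 1801 several and 11777 none. The members, gene lists and tests were chosen with earlier results of these data known. The text names all 10 members, the 2 transfected genes, genes from each list's 4 largest absolute differences in RB against control or in RB plus SMYD2 against RB, and the 5 genes most correlated with MYBL2 and with FOXM1. Promoters came from RefSeq.

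The deposited log2 values were fitted with limma 3.58.1 (R 4.3.3) in a model of all 16 arrays that gave each group its own mean and let the prior variance follow the mean signal. Tests were two-sided, and p-values were adjusted by Benjamini-Hochberg over 54613 probe sets, which leaves out 62 control probe sets. There were 7 comparisons. Single probe sets were also compared by exact permutation of 4 arrays against 4. The fit was tested on simulated data. The number of arrays limits the precision.

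Same-numbered arrays deviated together from their group means, with every pair above 0.1 (lowest 0.130) in all group pairs except RB with SMYD2 (lowest -0.0505), so a fit with the number as a block was also made. Alternatives covered the arrays in the fit, gene-level tests, filters on mean signal, median centring, array weights, and each array left out. Correlations used scipy 1.17.1, and figures matplotlib 3.10.9.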

Additional observations from a re-analysis of the deposited data

Results flagged for a closer look

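Each of the 26 probe sets was checked in each group for an array that stood far from the other 3. Of 104 such checks 7 stood out, where chance gives about 1 in 20, or 5.2. MYBL1 213906_at read 7.78 on SMYD2 replicate 1, against 8.57 to 8.72 on the others, and 7.91 on control replicate 1, against 8.74 to 8.91. Control replicate 1 also stood apart in LIN52 231959_at at 7.17 (others 7.57 to 7.63), in RBBP4 225396_at at 8.91 (others 8.25 to 8.35) and in TFDP2 226157_at at 9.81 (others 9.35 to 9.39). These 5 fell on the 2 arrays with the largest ACTB 3′ minus 5′ values, 3.53 on SMYD2 replicate 1 and 2.46 on control replicate 1, and the part of RNA quality in them was not tested beyond the correlations given above. LIN9 1552771_a_at read 4.32 on SMYD2 replicate 3 (others 4.00 to 4.04), and TFDP2 203588_s_at read 9.72 on RB replicate 4 (others 9.65 to 9.66). None of the 7 was in a probe set that passed the test in RB against control.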

How the results depend on the processing

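Each of the 182 differences of member probe sets was computed again under the alternatives, which gave 4321 values. Of these values, 25 lost and 27 gained the test's threshold, 3 others moved by more than the replicate spread and 4266 did neither. The losses were all in LIN9 235039_x_at, in RB against control and RB plus SMYD2 against SMYD2, and in MYBL2 in RB against control. No difference that passed, in either setting, changed sign. Of 4321 values, 230 had the opposite sign, in 73 of 182 differences and all without a call, such as RBBP4 217301_x_at in RB plus SMYD2 against SMYD2 at 0.23, which was -0.25 without SMYD2 replicate 1 and -0.22 with array weights. FOXM1 and TFDP1 242939_at kept their calls with RB in every setting that tested them. LIN9 235039_x_at lost its call in RB against control when arrays were centred on their medians (adjusted p = 0.0519) and in RB plus SMYD2 against SMYD2 when only those arrays were fitted (adjusted p = 0.154). When the probe sets of each gene were averaged, 2 of 10 members passed in RB against control, of 497 called over 19775 genes (2.51%). With the replicate block, 8 members passed in RB plus SMYD2 against SMYD2 and 7 in RB plus SMYD2 against control. Over all 54613 probe sets the block called 4021 and 3828. With array weights 7 and 8 members passed, of 3471 and 4891 called over all probe sets, so calls rose beyond the members too. The block changed no other count of members by over 1.5 times.

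Over all probe sets the block called 1810 in RB against control and 4021 in RB plus SMYD2 against SMYD2. It called 3828 in RB plus SMYD2 against control and 2365 in RB against SMYD2, where same-numbered deviations did not all correlate above 0.1. Array weights called 2450, 3471, 4891 and 1609 in the same comparisons, and 3 in RB plus SMYD2 against RB. A mean signal of at least 7 left 919 in RB against control, 1094 in RB against SMYD2, 0 in RB plus SMYD2 against RB and 0 in the interaction. Tests per gene, by leading set or by mean, called 0 in those last 2 comparisons, and by mean 1236 in RB plus SMYD2 against SMYD2 and 1244 in RB plus SMYD2 against control. Fitting only the arrays compared gave 847 in RB plus SMYD2 against SMYD2 and 124 in RB against SMYD2. Leaving out all 4 arrays numbered 1, an alternative chosen after seeing the data, gave 1276 in RB against control and 1207 in RB against SMYD2. TFDP1 212330_at then passed in RB plus SMYD2 against SMYD2 (-0.41, limma adjusted p = 0.0423) and against control (-0.41, adjusted p = 0.0392). MYBL1 213906_at then passed in RB plus SMYD2 against control (-1.02, limma adjusted p = 0.0268).

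With each array left out in turn, members called ranged from 2 to 4 in RB against control (2 without control replicate 4 or 5 or RB replicate 4), 3 to 6 in RB plus SMYD2 against SMYD2, 4 to 5 in RB plus SMYD2 against control and 3 to 3 in RB against SMYD2. They were 0 to 0 in SMYD2 against control, RB plus SMYD2 against RB and the interaction. Over all probe sets the ranges were 235 (without RB replicate 4) to 1197 (without SMYD2 replicate 1), 1057 (without RB plus SMYD2 replicate 5) to 2457, 1133 (without RB plus SMYD2 replicate 5) to 2923 (without SMYD2 replicate 1) and 230 (without RB replicate 4) to 947 in the same 4 comparisons. They were 1 to 2 in RB plus SMYD2 against RB, 0 to 0 in SMYD2 against control and 1 to 1 in the interaction. Counts over all probe sets also moved by over 1.5 times without RB replicate 5 (372), control replicate 4 (246) or 5 (290) in RB against control, without RB plus SMYD2 replicate 4 (1081) in RB plus SMYD2 against SMYD2, without control replicate 4 (1140) or 5 (1200) or RB plus SMYD2 replicate 4 (1144) in RB plus SMYD2 against control, without RB replicate 3 (398) or 5 (419) in RB against SMYD2, and without SMYD2 replicate 1 or RB plus SMYD2 replicate 3 or 5 (2 each) in RB plus SMYD2 against RB. RMA gives no detection call to say whether dim sets, such as those of LIN9 and LIN54, exceed background.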
